A study of Anopheles gambiae with 3 samples.

Results

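The brightest autosomal probe sets of Anopheles gambiae females were described after 2 blood meals taken within a gonotrophic cycle, the interval between a blood meal and egg laying. The members were chosen by their own intensity, at 8000 or more in each of 3 arrays, among probe sets whose IDs place them on arm 2L, 2R, 3L or 3R and carry no UTR mark. There were 250 of them, out of 12837 autosomal probe sets without a UTR mark and 22761 probe sets on the array. The rule used the intensities of all 3 arrays, so the levels, ranks and spread below are descriptions and were not tested.

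All 3 pools belonged to 1 group and no unfed or singly fed females were analysed here. Each pool combined 5 adult pink-eye females, whole, which makes 15 mosquitoes in all, kept with males until the earlier meal. They fed on anaesthetized mice when 4 days old, fed again 48 h later and were collected 24 h after that, with 1 Affymetrix array for each pool. In whole-body RNA, more cells of a type and more RNA per cell cannot be told apart.

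In a blood-fed mosquito the midgut secretes proteases that digest the blood, and the fat body, the insect counterpart of liver and adipose tissue, makes yolk proteins that the ovary takes up into developing eggs. Transcripts for protein synthesis, energy supply and the cytoskeleton are also among the commonest in most animal tissues. The probe set IDs give an arm, a cluster number and a transcript part but no gene name, so none of the 250 could be assigned to these processes. For the same reason the whole-body female label could not be checked against marker genes. Of the mosquito transcripts, only actin and Gapdh are named, in control IDs. Actin, a protein of the cytoskeleton, read 16677 ± 1165 (SD, n = 3) at its 3' end, and Gapdh, a glycolytic enzyme, 23537 ± 5564 (SD, n = 3). At the 5' end the means were lower, 12856 for actin and 11504 for Gapdh, and in the probe sets marked M they were 21359 and 22499. In pools 1 to 3 Gapdh read 23274, 18108 and 29228 at its 3' end and 11174, 11479 and 11860 at its 5' end. All 6 probe sets for actin and Gapdh were at 8000 or more in each pool.

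Intensity also depends on how well the probes of a set bind, and the deposited table holds no correction for it. The members are therefore the brightest autosomal probe sets, and whether they are the most abundant transcripts was not tested. Ranks and shares below are ranks and shares of intensity.

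The 250 probe sets made up 1.95% of the autosomal ones without a UTR mark and held a far larger part of their summed intensity. That share was 34.4%, 35.3% and 37.2% in pools 1 to 3, on average 35.6% ± 1.46 (SD, n = 3). Of the intensity of all 16884 mosquito probe sets, UTR, X and unplaced ones included, they held 27.8% ± 1.18 (SD, n = 3). The 252 probe sets just below, at 4000 to 8000 in their lowest pool, held 11.2% ± 0.13 of the autosomal intensity (SD, n = 3). The brightest 10 members held 3.20% ± 0.26 and the brightest 50 held 12.1% ± 0.72 (SD, n = 3 for both). In pool 3, 551 autosomal probe sets were enough to hold 50% of the intensity, in pool 2 616 and in pool 1 660.

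Among the other classes of mosquito probe sets the same intensity limit was passed by 7.22% of the autosomal UTR probe sets (51 of 706). It was passed by 1.12% of those on the X without a UTR mark (15 of 1335) and by 0.728% of the unplaced ones without a UTR mark (14 of 1922). The brightest of these were Ag.UNKN.380.0_CDS_s_at with 31026, 32917 and 32777 in pools 1 to 3, Ag.3R.165.4_UTR_a_at with 27817, 30259.6 and 34027, and Ag.X.83.0_CDS_a_at with 25790.4, 29452 and 33479.9. Each of the 3 was lowest in pool 1.

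The members covered a wide range of levels. The mean over pools went from 8165 to 56443 with a median of 17599. Of the 250, 134 (53.6%) were at 16000 or more in each pool, 61 (24.4%) at 24000 or more, 14 (5.6%) at 32000 or more and 6 (2.4%) at 40000 or more. The median member read 17292, 17664 and 18698 in pools 1 to 3.

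**Figure D1:**
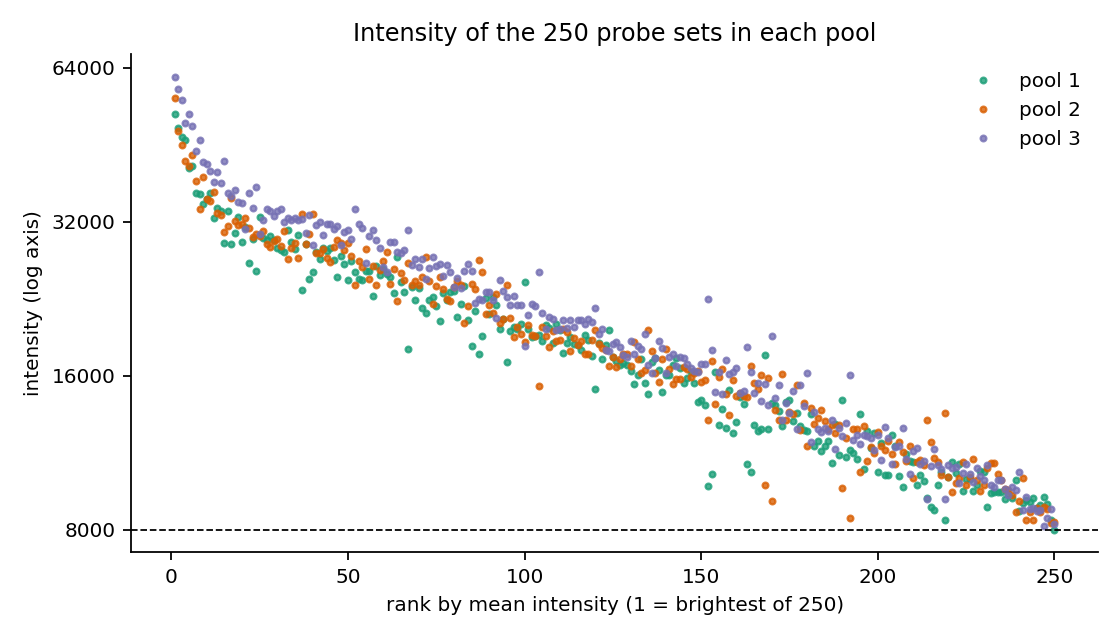
Intensity (log axis) of each of the 250 probe sets in the 3 pools, ordered by mean intensity, with 1 point for each probe set and pool and a dashed line at 8000. The points of the 3 pools lie close together along the whole order, with those of pool 3 mostly uppermost on the left and single points of pools 1 and 2 falling low between ranks 150 and 200.

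The brightest member of all was Ag.2R.10.0_CDS_x_at, with 52023, 55906 and 61401 in pools 1 to 3 (mean 56443). It was followed by Ag.2R.3695.0_s_at, with 48715, 48142 and 57991 in pools 1 to 3 (mean 51616), and by Ag.2L.2855.0_s_at, with 46737, 45071 and 55355 (mean 49054). These 3 kept ranks 1, 2 and 3 in every pool. Next by mean were Ag.2L.2853.1_s_at (46140.2, 42063 and 49794 in pools 1 to 3) and Ag.2R.3695.2_s_at (40673, 41073 and 51971). Ag.2R.3695.2_s_at shares its cluster with the member of rank 2. Ag.2L.150.0_CDS_a_at read 41177, 43280.2 and 49215 in pools 1 to 3. The remaining 4 of the brightest 10 were Ag.2R.263.0_CDS_a_at, Ag.3R.2657.1_a_at, Ag.2L.2.0_CDS_s_at and Ag.3R.10.0_CDS_a_at, with means from 37398 to 39609.

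All 10 brightest members were highest in pool 3, and all 10 carried a suffix letter in the ID. Their arms were 2L (4), 2R (4) and 3R (2), with 0 on 3L, and 5 of the 10 carried no CDS mark. Of all 12837 autosomal probe sets without a UTR mark, 27.3% carried a letter, 18.5% lay on 3L and 13.2% carried no CDS mark.

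The limit separated probe sets with similar readings. Just inside lay Ag.2L.360.0_CDS_at, with 8000.4, 8282 and 8214 in pools 1 to 3, Ag.2R.302.0_CDS_at, with 9272, 8851 and 8125, and Ag.3L.152.0_CDS_s_at, with 8372, 8249.7 and 8767. Just outside lay Ag.2L.2879.0_s_at, with 8326, 7952 and 9289, Ag.3R.692.0_CDS_a_at, with 7934, 9260.5 and 8202, and Ag.3R.7.2_a_at, with 8329, 7928 and 8159. Each of the outer 3 was below 8000 in 1 pool only. In all, 304 autosomal probe sets reached 8000 in at least 1 pool, and 54 of these did not in every pool.

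The limit was also applied to 2 pools at a time, and the pool left out was read. The 250 that reached it there too are by definition the members. The shares below therefore only set the member count against the count passing in 2 pools, and are no outside check. Of 265 probe sets at 8000 or more in pools 2 and 3, 250 (94.3%) also reached it in pool 1. Of 262 chosen on pools 1 and 3, 250 (95.4%) reached it in pool 2. Of 252 chosen on pools 1 and 2, 250 (99.2%) reached it in pool 3. The lowest reading in a pool left out was 4506, for Ag.2L.295.0_CDS_at in pool 1.

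The suffix letters of the IDs set the members apart from the mass of autosomal probe sets. In Affymetrix naming these letters mark probe sets whose probes are shared by several transcripts, of a gene (a) or of several genes (s), or that can bind other transcripts in part (x). A letter was carried by 177 of the 250 members (70.8%), against 27.3% of all 12837. The letter a was carried by 106 members (42.4%, against 20.6% of all), s by 68 (27.2%, against 6.71%) and x by 3, where the whole autosomal class held 6. The remaining 73 members (29.2%) carried none, against 72.7% of all.

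The share with a letter was also higher at higher levels below the limit. It was 29.6% of probe sets at 250 to 1000 in their lowest pool, 37.8% at 1000 to 2000, 47.2% at 2000 to 4000 and 57.5% at 4000 to 8000. A probe set that reads several transcripts adds up their signal, and the part this plays in the levels was not tested. Members without a letter had a median mean of 16755 and 0 of the 73 were at 32000 or more in each pool. Those with the letter a had a median mean of 18780.5 and those with s 17803. The CDS mark was carried by 206 members (82.4%, against 86.8% of all) and no part mark by 44 (17.6%, against 13.2%).

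**Figure D2:**
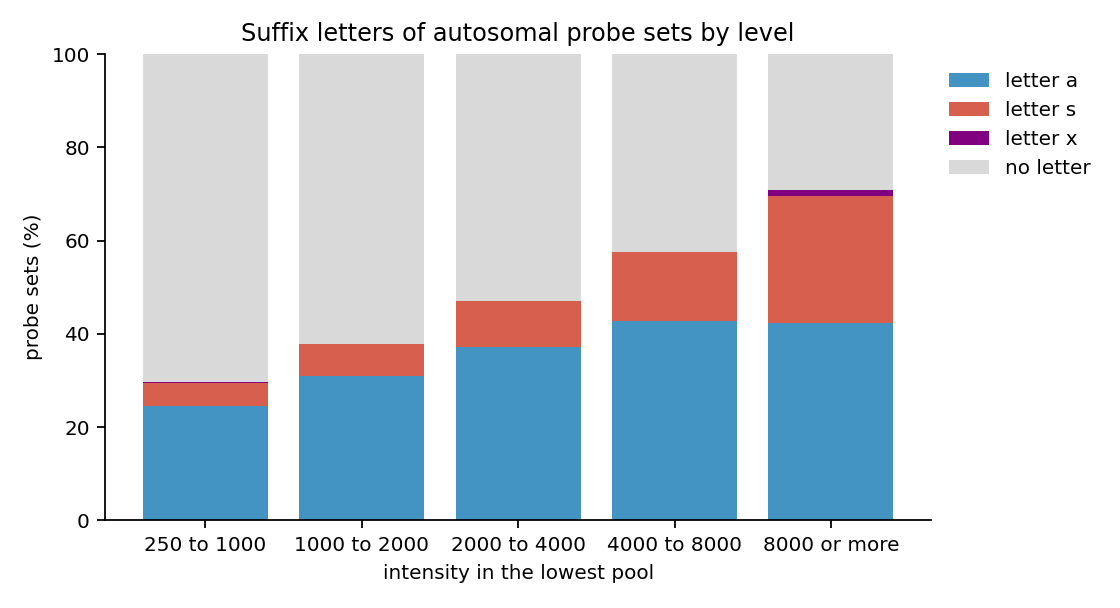
Share of autosomal probe sets without a UTR mark that carry the suffix letter a, s or x or no letter, in 5 classes of intensity in the lowest pool, the class at 8000 or more being the 250 members. The share with a letter is 29.6% in the dimmest class and 70.8% among the members, and s has its highest share, 27.2%, among the members.

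Across the chromosome arms the members had shares close to those of all autosomal probe sets. There were 61 on 2L (24.4%, against 25.5% of all autosomal probe sets without a UTR mark), 86 on 2R (34.4%, against 32.7%), 41 on 3L (16.4%, against 18.5%) and 62 on 3R (24.8%, against 23.4%). Seen from the arm, 1.87% of probe sets on 2L were members, 2.05% on 2R, 1.73% on 3L and 2.07% on 3R. The median mean intensity of the members was 16902 on 2L, 19029 on 2R, 19531 on 3L and 16463 on 3R. The dimmest member of an arm had a mean between 8165 and 8749, and the brightest between 37279 and 56443.

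Along the cluster numbers the members were bunched. The 250 probe sets fell into 222 clusters. Of the members, 161 (64.4%) had another member in the same or the next cluster number on the same arm, and the same held for 2.06% of the 12587 autosomal probe sets that were not members. Without counting a member's own cluster the shares were 52.4% of the members and 2.0% of the others. Both comparisons took non-members at all cluster numbers, whereas members were concentrated at certain numbers, as given below. Shares at like cluster numbers were not computed, so bunching or runs apart from that pattern were not tested. There were 32 runs of at least 2 consecutive cluster numbers that each held a member, with 131 members in them. In runs of at least 3 there were 103 members (41.2%) in 19 runs, and in runs of at least 5 there were 64 (25.6%) in 8 runs.

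The longest run covered the 10 clusters from 170 to 179 of 3R and held 11 members, with means from 9408 to 29848. Both next longest covered 9 clusters. That on 2R went from cluster 263 to 271 and held 10 members, with means from 10438 to 39609. That on 3L went from cluster 114 to 122 and held 11 members, with means from 14307 to 31061.5. A run of 7 clusters followed on 2R, from 273 to 279, with 8 members. Within a run the levels were not alike: in that on 3R, Ag.3R.172.0_CDS_at read 26494, 28113 and 30582 in pools 1 to 3, and its neighbour Ag.3R.173.0_CDS_a_at 9988, 8669 and 9566.

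Most members' cluster numbers were gathered at the start of 2 ranges on every arm. Both were delimited after the values had been seen, with the break placed at the widest gap between member clusters numbered below 400. On 2L no member lay between clusters 13 and 149, where the array has 144 autosomal probe sets without a UTR mark with a median intensity of 187.1. On 2R the gap ran from 71 to 263 (200 probe sets, median 82.0), on 3L from 5 to 112 (111 probe sets, median 103.5) and on 3R from 42 to 154 (128 probe sets, median 89.4). The gaps were not uniformly dim, with a brightest mean of 7636 on 2L, 1255 on 2R, 7880.05 on 3L and 1832 on 3R. The range below the break held 42 members of 738 probe sets. The range from the break to the highest CDS number held 188 of 11088, and the numbers above that 20 of 1011.

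Within the main range, from the break to the highest CDS number, members were rarer at higher numbers. Over the 4 arms together, 111 of the 228 probe sets in the first 50 cluster numbers after the break were members (48.7%), 37 of 215 in the next 50 (17.2%) and 21 of 449 in the next 100 (4.68%). Of 4113 probe sets of the main range at 1600 or more numbers after the break, 0 were members. The median intensity of the probe sets that were not members was also lower at higher numbers, with 3332, 2899 and 1388 in those first 3 classes and 122.7 in the last. Across these non-members the Spearman correlation of cluster number and mean intensity was -0.55 on 2L, -0.56 on 2R, -0.55 on 3L and -0.56 on 3R, over 2797, 3514, 2050 and 2539 probe sets. UTR probe sets, which the rule did not use, gave -0.45, -0.47, -0.45 and -0.59 over 152, 220, 117 and 173. These are descriptions across probe sets of the same arrays.

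Beyond the highest CDS number, where the IDs carry no part mark, this pattern was weaker. Members made up 0.752% of the probe sets there on 2L, 3.02% on 2R, 1.72% on 3L and 2.08% on 3R, and 5 of the 10 brightest members lay there, among them those of ranks 2 to 5. The Spearman correlation of number and mean intensity across non-members was -0.19 on 2L, -0.26 on 2R, -0.35 on 3L and -0.29 on 3R in these numbers. Below the break it was -0.63 on 2L, -0.63 on 2R, -0.56 on 3L and -0.74 on 3R, over 146, 273, 112 and 165 non-members. Level was thus lower at higher cluster numbers in every range, and least clearly beyond the highest CDS number. The sources used here do not say whether the numbers follow the order of genes along a chromosome. The runs are therefore runs of numbers, and nearness on the chromosome was not tested.

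**Figure D3:**
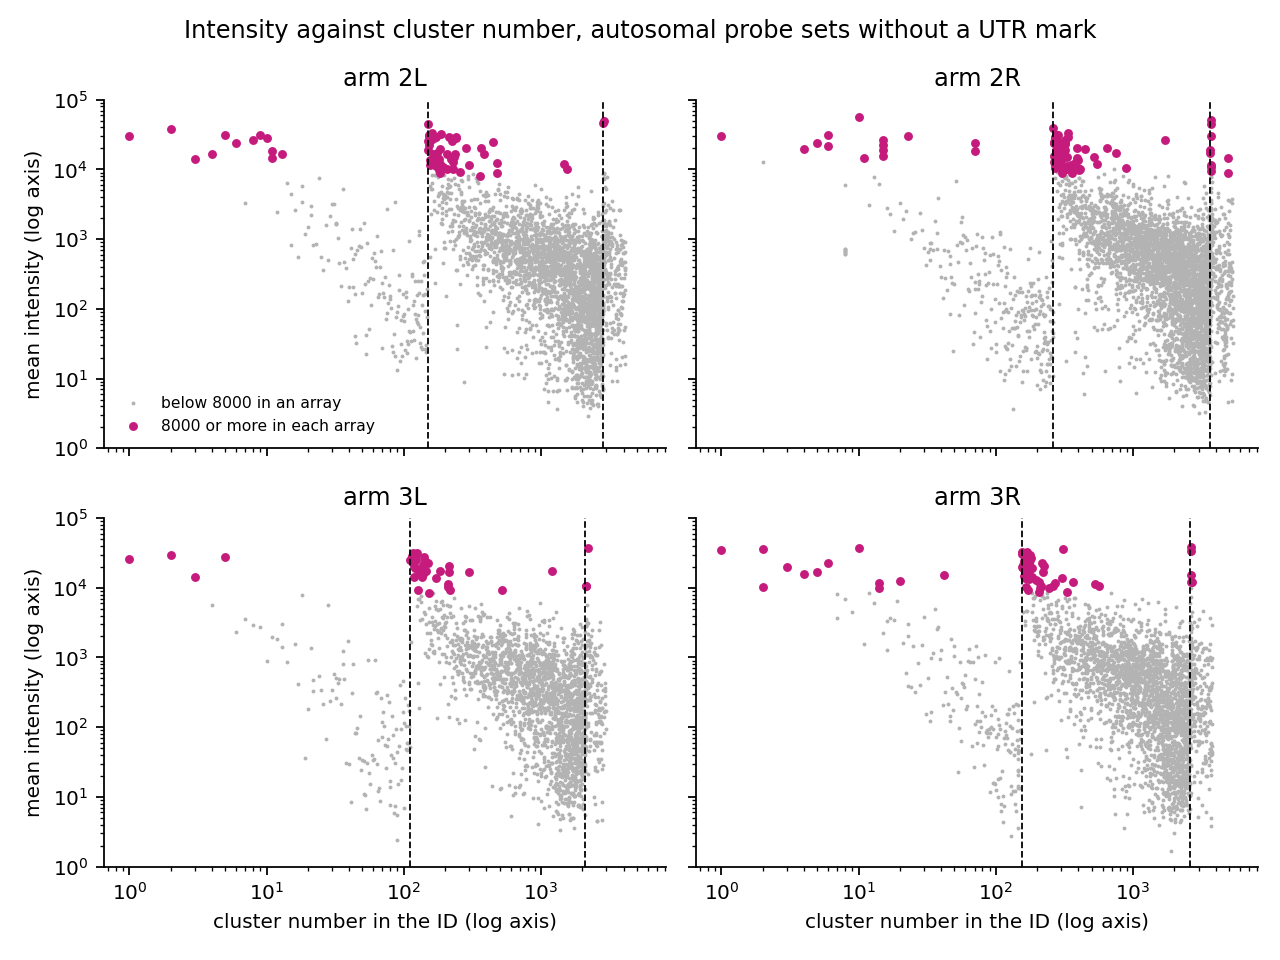
Mean intensity over 3 pools against the cluster number in the probe set ID, both on log axes, for autosomal probe sets without a UTR mark on each arm, with the 250 members coloured and dashed lines at the first and last number of the main range (149 and 2814 on 2L, 263 and 3630 on 2R, 112 and 2108 on 3L, 154 and 2619 on 3R). On every arm the level falls along the low numbers, starts high again at the first line and falls once more, with most members at both starts and 20 beyond the second line.

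Several clusters were represented by more than 1 member. There were 23 such clusters with 51 members, and 4 of them held 3 or more. Cluster 15 of 2R had 4, with means of 15600.2 (Ag.2R.15.0_CDS_at), 19045 (Ag.2R.15.0_CDS_x_at), 22693 (Ag.2R.15.0_CDS_a_at) and 26088 (Ag.2R.15.1_a_at). Cluster 117 of 3L had 3, with means from 24547 to 31061.5, cluster 180 of 2L had 3, from 9909 to 14142, and cluster 302 of 2R had 3, from 8749 to 14072. What a cluster number stands for is not documented in these sources. Members with the same number were each counted in the shares and correlations given here, so these counts are not counts of separate observations.

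Not every probe set of a member cluster was bright. In 8 clusters 9 further probe sets without a UTR mark lay below the limit, with means from 87.8 to 7563. In cluster 71 of 2R the members Ag.2R.71.2_CDS_at (18356.5, 17992 and 17958 in pools 1 to 3) and Ag.2R.71.5_s_at (20489, 24932 and 26421) stood beside Ag.2R.71.0_CDS_at, with 49.7, 112.3 and 101.4. Ag.2R.71.0_CDS_at lay below the 95th percentile of the Plasmodium probe sets in pool 1 (57.4) and above it in pool 2 (51.8) and pool 3 (64.4). Those probe sets served as background, as no label names a parasite. On 3L, Ag.3L.210.2_at read 205.2, 227.2 and 203.6, where the member Ag.3L.210.0_CDS_at of the same cluster read 11639, 10752 and 11606.

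UTR probe sets of the same clusters gave a reading that the rule had not used. They were present for 43 of the 222 member clusters, 56 probe sets in all. Of these, 32 (57.1%) were at 8000 or more in each pool, against 19 of 650 autosomal UTR probe sets of other clusters (2.92%). Counted by cluster, 25 of 43 member clusters had such a UTR probe set (58.1%), against 14 of 624 others (2.24%). The median UTR intensity was 9149 in member clusters and 1163 in the others. The brightest was Ag.2L.150.0_UTR_a_at, with 26686, 27346 and 27671 in pools 1 to 3, in the cluster of the member of rank 6.

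Some UTR probe sets of member clusters were dim in every pool. Ag.2R.307.0_UTR_at read 827.9, 970.9 and 858.8 in pools 1 to 3, beside the member Ag.2R.307.0_CDS_at with 22757, 21167 and 22469. Ag.3L.121.0_UTR_a_at read 895.0, 782.6 and 1088, beside Ag.3L.121.0_CDS_a_at with 24949, 29471 and 31424. Cluster 6 of 2R alone supplied 10 of the 56 UTR probe sets, with means from 8123 to 9627, and 6 of these passed the limit. Without that cluster 26 of 46 passed it (56.5%).

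**Figure D4:**
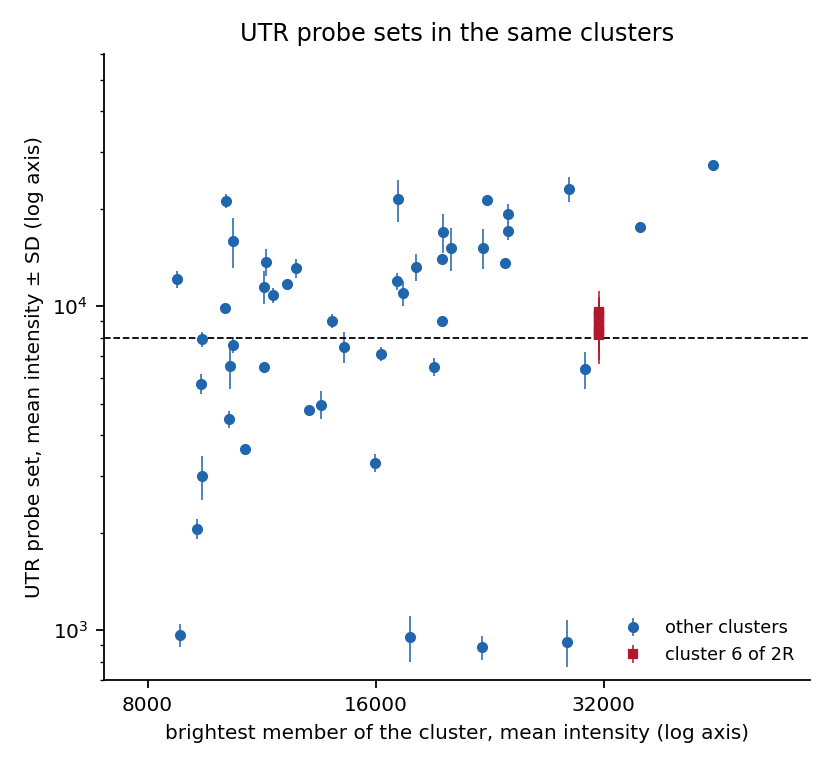
Mean intensity of the 56 UTR probe sets in member clusters (vertical log axis, bars are the SD over 3 pools) against the mean intensity of the brightest member of the same cluster (horizontal log axis), with a dashed line at 8000. UTR intensities run from 885.9 to 27234, the 10 of cluster 6 of 2R form 1 narrow stack, and 4 UTR probe sets lie below 1000.

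Replicate pools ranked the members in nearly the same order. Across the 250 probe sets the Spearman correlation of intensities was 0.947 for pools 2 and 1, 0.960 for pools 3 and 1 and 0.962 for pools 3 and 2. Of the brightest 10 of each pool, 7 were the same in all 3 pools and 14 appeared in at least 1. Of the brightest 20, 15 were shared, and of the brightest 50, 36. The difference between a member's highest and lowest rank had a median of 18 places. It was at most 10 places for 80 members, above 20 for 98 and above 50 for 17. These ranks are within the 250, all of which had to pass the limit in each pool.

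The spread between pools was small for most members. The SD of log2 intensity had a median of 0.11 and a 90th percentile of 0.22. In linear terms the coefficient of variation had a median of 7.39% and ran from 0.83% to 44.0%. The limit cuts off low readings, and the class at 4000 to 8000 had nearly the same median SD, 0.11, as did that at 2000 to 4000. The highest pool was more than 1.5 times the lowest for 11 members (4.4%), where 20.6% of the 9681 autosomal probe sets above background in all pools exceeded that ratio. It was 6.35% at 4000 to 8000, 3.14% at 2000 to 4000 and 4.94% at 1000 to 2000, so that the members' share lay among those of dimmer classes. Members with no letter, a and s had median SDs of 0.10, 0.11 and 0.12.

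The member that varied most was Ag.3R.42.0_CDS_at, with 9721, 13123 and 22581 in pools 1 to 3 and an SD of 0.62 log2. It moved over 130 ranks, and its highest pool was 2.32 times its lowest. Ag.3L.3.0_CDS_a_at read 14178, 9103 and 19124 in pools 1 to 3, with an SD of 0.54 log2. These were the only 2 members with a ratio above 2. Ag.3R.2669.0_at read 11438, 8449 and 16017 (SD 0.46 log2), Ag.3R.175.0_CDS_at 10292, 17109.9 and 17972 (SD 0.45 log2) and Ag.3R.163.0_CDS_s_at 17529.5, 9785 and 15412 (SD 0.44 log2), in pools 1 to 3.

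No single pool was the odd one in all of these 5. Pool 2 was lowest in 3 of them and pool 1 in 2, and pool 3 was highest in 4. With 1 array for each pool, the difference of a single pool has no replicate check. Of the 11 members with a ratio above 1.5, pool 3 was highest for 7, pool 2 for 3 and pool 1 for 1.

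The 5 steadiest members all lay on 2R, which held 34.4% of the members, at ranks 80 to 245 by mean intensity. Ag.2R.4916.0_at read 8835, 8802 and 8695 in pools 1 to 3, an SD of 0.012 log2. Ag.2R.334.1_CDS_s_at read 10071, 10119 and 10259.8 (0.014 log2), and Ag.2R.321.0_CDS_a_at 23429.9, 23813.5 and 23865 (0.015 log2), and in each of these 3 the highest pool was 1.02 times the lowest. Ag.2R.4959.0_at read 14516, 14812 and 14812, and Ag.2R.71.2_CDS_at is given above. The median SD of members was 0.12 log2 on 2L, 0.10 on 2R, 0.10 on 3L and 0.11 on 3R.

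Most members were brightest in pool 3. Their highest reading was in pool 3 for 163 (65.2%), in pool 2 for 55 (22.0%) and in pool 1 for 32 (12.8%). Among all 9681 autosomal probe sets above background in all pools, 33.2% were highest in pool 3. Pool 3 over pool 1 had a median log2 ratio of 0.15 over the members, with 209 of 250 above 0, and pool 3 over pool 2 of 0.087, with 185 above 0. The summed intensity of the members in pool 3 was 1.13 times that in pool 1. For the other autosomal probe sets this ratio was 1.00. The arrays share a mean after trimming 2% at each end, which holds the bulk of probe sets to like sums. The 1.00 is therefore largely set by the scaling and is no independent reference for the members.

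The preference for pool 3 followed level within the group. Among the 83 dimmest members, with means up to 14242, 30 were highest in pool 3 (36.1%), with a median log2 ratio of pool 3 over pool 1 of 0.067. Among the middle 83 it was 59 (71.1%) and 0.16, and among the 84 brightest, with means from 22954, it was 74 (88.1%) and 0.21. Below the limit the ratio was 0.035 at 4000 to 8000, -0.023 at 2000 to 4000 and -0.051 at 1000 to 2000. Members without a suffix letter showed it too, with 42 of 73 highest in pool 3 (57.5%).

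Probe sets for spike controls mostly moved the same way, with 14 of 18 highest in pool 3. All 4 probe sets for the phage cre spike were highest in pool 3, with log2 ratios of pool 3 over pool 1 from 0.18 to 0.32, and AFFX-r2-P1-cre-3_at read 25335, 23044.5 and 31670.5 in pools 1 to 3. Of the 14 probe sets for the bacterial bio spikes, 10 were highest in pool 3, with a median log2 ratio of 0.22, although most of them were much dimmer than the members. With the arrays set to a common median over the mosquito probe sets, 59.7% of members were highest in pool 3. Quantile normalization gives the arrays 1 common distribution, which by construction brings the brightest probe sets of all pools to like levels. After it, 60 of 251 members (23.9%) were highest in pool 3, and the median log2 ratio of pool 3 over pool 1 was -0.015. The part of labelling or scaling in the pool 3 pattern was not tested.

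**Figure D5:**
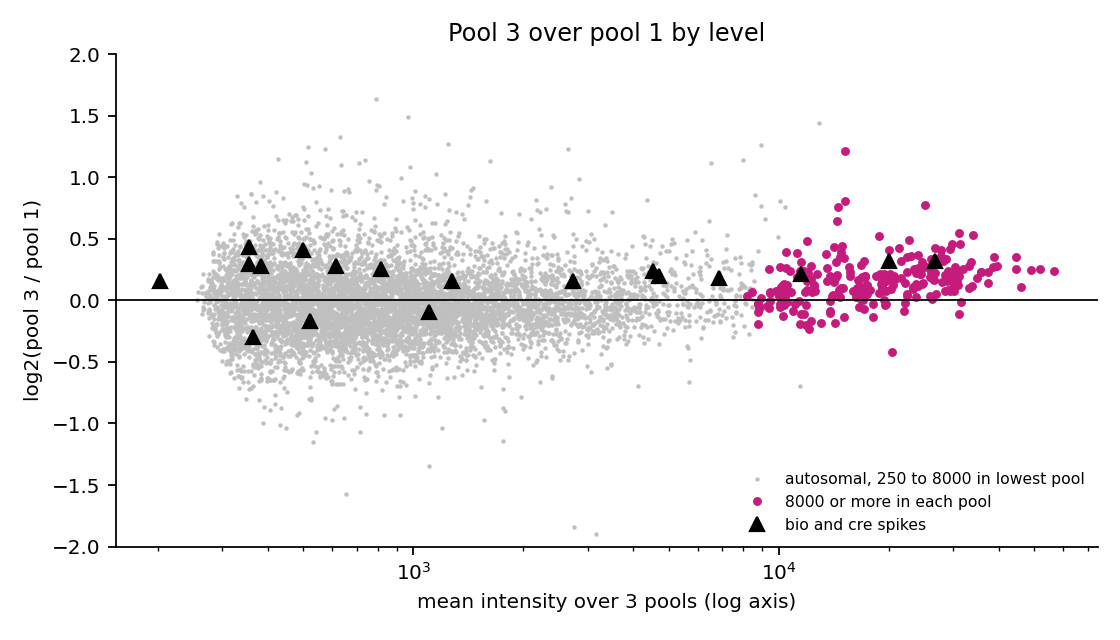
Log2 ratio of pool 3 over pool 1 against mean intensity over 3 pools (log axis), for the 250 members, for other autosomal probe sets at 250 to 8000 in their lowest pool and for 18 bio and cre spike probe sets; points beyond 2 in either direction are not drawn. The cloud is near 0 up to about 4000 and turns upward among the members, of which 209 lie above 0, and most spikes lie above 0 at low as well as high intensity.

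The UTR probe sets of member clusters were divided differently over the pools, but they were also dimmer than the members, with a median of 9149 against 17599. Highest in pool 3 were 36.1% of the 83 dimmest members and 36.5% of the autosomal probe sets at 4000 to 8000. Of the 56 UTR probe sets, 21 were highest in pool 3 (37.5%), 27 in pool 2 and 8 in pool 1. Without cluster 6 of 2R, 21 of 46 were highest in pool 3 (45.7%), 18 in pool 2 and 7 in pool 1. Their median log2 ratio of pool 3 over pool 1 was 0.068, beside 0.026 for the brightest members of those same clusters. The 10 UTR probe sets of cluster 6 of 2R are all paired with 1 member, and without them these medians were 0.077 for the UTR probe sets and 0.065 for the members. Across the 56 pairs, the ratios of UTR probe set and member had a Spearman correlation of 0.40 and a Pearson correlation of 0.39, and 0.39 for both without cluster 6 of 2R. The pairs share arrays, scaling and in part clusters, so this is a description.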

How the data were processed

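RNA from 3 pools of whole female mosquitoes was measured on 1 Affymetrix array each. Per the labels' protocols, cDNA was primed from the poly(A) tail and transcribed into biotin-labelled cRNA. The authors deposited probe set intensity values on a linear scale. GCOS 1.1.1 is named in the submitters' processing notes, and the sources used here do not name the summarisation method. The mean of each deposited column after trimming 2% at each end was 500.3, so arrays share a scale. Precision is limited by having 3 arrays.

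Members were found by ID and by the limit of 8000. Log2 values took no pseudocount. Background was the 95th percentile of the Plasmodium (Pf.) probe sets of an array, and all 250 members exceeded it, with no further filter. Arm, cluster number, part and suffix letter were read from the ID. Runs were consecutive cluster numbers on an arm. Python 3.11.15, pandas 2.3.3 and numpy 2.4.6 were used, and the functions were tested on simulated data. No test between conditions was possible with 1 group.

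Probe sets named are the 10 brightest, the 5 with the largest and smallest SD, clusters with 3 or more members, the 3 longest runs, those next to the limit, the brightest UTR, X and unplaced one, and controls. Others named (in the longest run, in clusters with a dim probe set or a UTR probe set, and the lowest reading of a pool left out) were chosen after their values were seen. Members, rule and lists were chosen with earlier results of these data known. The gene lists planned (yolk, proteases, ribosomal proteins and others) were not used, since neither the table nor the reference of 15165 genes pairs the IDs with genes. No sequence is shown for the same reason.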

Additional observations from a re-analysis of the deposited data

Results flagged for a closer look

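Among probe sets outside the mosquito IDs, 12 reached 8000 in each pool, of which 10 were controls, 0 carried the Plasmodium prefix and 2 were named by a sequence accession. The brighter of these 2 read 62345.5, 58863 and 70979 in pools 1 to 3, with a mean of 64062 ± 6238 (SD, n = 3), and 0 of the 250 members had a higher mean. The other read 23598.5, 14925 and 27261, a mean of 21928 ± 6335 (SD, n = 3), with 92 members above it. Neither ID is paired with a gene or an arm in the sources used here. They stand out as signal in data that the comparisons above do not use.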

How the results depend on the processing

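Of 91 alternative values, 63 stayed near the value reported and 28 moved. A count of members stayed if it differed from the reported count by no more than 1.5 times, as 11 of 13 did. Other values stayed if they lay within a spread over pools or pairs of pools, or within an interval over probe sets. The alternatives for the highest pool were chosen after seeing the data. No paired analysis was possible because all arrays belong to a single group. The share of members on 2R stayed within its binomial interval over probe sets, 28.5% to 40.6%, under all 13 alternatives. Such intervals treat probe sets read on the same arrays as independent, so they do not measure the spread between pools. A limit of 4000 gave 502 members and 16000 gave 134, by construction. The members' share of autosomal intensity was 46.8% at 4000, 40.5% at 6000, 32.6% at 10000 and 25.2% at 16000. It was 37.5% with the limit met in any 2 arrays and 37.5% with it met by the mean. Without the letters s and x it was 29.7%, over all mosquito probe sets 27.8%, and leaving out a pool gave 34.9% to 37.3%. Members beside another member were 55.3% without the letters s and x, 54.1% with 1 probe set a cluster, 72.0% within 2 numbers and 82.8% within 5. The lowest rank correlation was 0.956 at 4000 and 0.892 at 16000, and 0.948 to 0.961 leaving out a pool. The median SD was 0.077 log2 after quantile normalization, and 0.069 to 0.11 leaving out a pool. The largest ratio between pools was 3.51 at 4000, 1.71 at 16000 and 1.79 to 2.32 leaving out a pool. UTR probe sets at the limit were 20% at 16000. Members highest in pool 3 were 50.8% at 4000, 81.3% at 16000 and 23.9% after quantile normalization, which by construction evens out the brightest probe sets of the arrays, and 59.7% with a common median. With 3 arrays, 1 group and no gene names, no difference between conditions could be measured, and intensities depend on each probe set's probes.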
